A study of Homo sapiens with 10 samples.

Results

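Growth factor receptors on blood cells decide which colony-stimulating factors and interleukins a cell can answer. The 8 receptor genes KIT, FLT3, CSF1R, CSF2RA, CSF2RB, CSF3R, IL3RA and EPOR were chosen by name, as the main receptors through which blood progenitors sense these factors, out of 50868 genes in the deposited table. Earlier results of these data were known when the genes were chosen. All 8 were found once each, and all had enough reads to be measured in every comparison. They were described in Kasumi-1, a human myeloblast leukemia cell line with the t(8;21) translocation that fuses RUNX1 to RUNX1T1 and with a known activating mutation of KIT.

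The data are 4 RNA-seq libraries of Kasumi-1 cells, 1 library per group. Cells were infected with the MIGR1 retroviral vector alone, called vector below, or with a retrovirus carrying an HA-tagged E protein: HEB (gene TCF12), E2A (gene TCF3) or E2-2 (gene TCF4). E proteins are basic helix-loop-helix transcription factors that bind the DNA letters CANNTG, the E-box. GFP-positive cells were sorted and their RNA taken 4 days after infection, so all groups share the line, the virus backbone, the sort and the time point. The comparisons address how far the roles of the 3 E proteins differ in leukemia cells of this kind. Since every group is a single library, nothing could be tested over replicates and the text holds no p-values.

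KIT, FLT3 and CSF1R are class III receptor tyrosine kinases, which carry their own kinase domain and bind stem cell factor, FLT3 ligand and macrophage colony-stimulating factor. The other members belong to the class I cytokine receptors, which have no kinase domain and signal through bound JAK kinases. In that class, the CSF2RA and IL3RA alpha chains bind granulocyte-macrophage colony-stimulating factor and interleukin 3, and CSF2RB is the beta chain they share. CSF3R and EPOR, the receptors for granulocyte colony-stimulating factor and erythropoietin, pair with themselves. In normal blood formation KIT and FLT3 mark progenitors, CSF1R the monocyte line, CSF3R the neutrophil line and EPOR the erythroid line.

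Library totals ran from 14816708 to 17673090 counted reads. Levels are given in CPM, counts scaled to a library of 1000000 after TMM scaling, and 3 reads corresponded to 0.170 to 0.198 CPM. Each interval in parentheses is a 95% exact interval for counting error only. A call, higher or lower, required 30 or more reads of the gene in the libraries compared, a fold of 2 or more and an interval that did not include 1. Calls describe these libraries, not the conditions. The transduced genes matched the labels: TCF12 stood at 836 CPM in HEB against 165 in vector, TCF3 at 1312 in E2A against 252, and TCF4 at 823 in E2-2 against 0.256. These values add the cells' own RNA to that of the transgene and are not corrected for length, so transgene levels were not compared between libraries, and their part in the differences below was not tested.

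Labelled as myeloblasts, the cells carried reads of all 9 myeloblast markers in every library, with MPO, the neutrophil peroxidase gene, at 170661 to 298092 reads. The median log2 fold of these markers was -0.61 with E2-2, -0.20 with E2A and 0.03 with HEB, beside the receptor differences below. CD33 alone on this list was called, and it was higher in all 3 E protein libraries. It had 441 reads in vector, 1490 in HEB, 1515 in E2A and 1751 in E2-2. CD34, the progenitor surface marker, was at 253 CPM in vector, 130 in HEB, 149 in E2A and 166 in E2-2, and the part of these shifts in the receptor results was not tested. Markers of other blood cells were sparse, apart from the mast cell protease gene CPA3. That gene was called higher in all 3 E protein libraries, and its reads are given with KIT below. The maturing granulocyte list summed to 2.24 to 4.88 CPM with 2 to 6 of 8 detected, and the erythroid list to 0.513 to 1.98 CPM with 2 or 3 of 8 detected. Lymphoid genes summed to 5.58 CPM in vector, 4.11 in HEB and 10.3 in E2-2, with E2A between vector and E2-2 and 5 or 6 of 6 detected. Of these, CD79A, a B cell receptor chain gene, had 30, 35, 75 and 141 reads and was called higher with E2A and E2-2, and CD3D, a T cell receptor chain gene, had 34, 15, 10 and 2 and was called lower in all 3. Their part in the receptor results was not tested. Fibroblast and packaging cell genes summed to 0.340 to 0.659 CPM with 3 or 4 of 5 detected. In RNA from a bulk of sorted cells, more RNA per cell and more cells of a kind cannot be told apart.

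The sequence just upstream of the start of FLT3, CSF1R and EPOR is shown first. These genes were picked because they were called higher than vector in every E protein library, as described below. Windows of CSF2RA, CSF3R and IL3RA, which were not called, held E-boxes too. Whether E-boxes had a part in the differences was not tested. Each line gives 250 bases up to the RefSeq transcription start, read in the direction of the gene, from RefSeq on GRCh38.p14. Capitals mark every E-box. CSF1R has 2 RefSeq start sites: the upstream one is the known trophoblast promoter, and the downstream one, inside the gene span of the table, is the one known from monocytes. Gene-level counts do not tell which start the reads came from.
FLT3, chr13:28100577-28100826, minus strand: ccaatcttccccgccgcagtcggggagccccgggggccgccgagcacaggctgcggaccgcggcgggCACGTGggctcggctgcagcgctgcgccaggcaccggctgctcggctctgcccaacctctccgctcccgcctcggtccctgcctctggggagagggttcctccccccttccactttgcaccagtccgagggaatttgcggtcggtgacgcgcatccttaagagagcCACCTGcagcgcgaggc
CSF1R upstream start, chr5:150113366-150113615, minus strand: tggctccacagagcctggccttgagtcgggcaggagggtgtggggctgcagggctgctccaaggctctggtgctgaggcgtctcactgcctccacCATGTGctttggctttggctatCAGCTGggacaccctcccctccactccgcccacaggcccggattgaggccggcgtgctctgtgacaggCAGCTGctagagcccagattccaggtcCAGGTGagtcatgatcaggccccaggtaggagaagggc
CSF1R downstream start, chr5:150086555-150086804, minus strand: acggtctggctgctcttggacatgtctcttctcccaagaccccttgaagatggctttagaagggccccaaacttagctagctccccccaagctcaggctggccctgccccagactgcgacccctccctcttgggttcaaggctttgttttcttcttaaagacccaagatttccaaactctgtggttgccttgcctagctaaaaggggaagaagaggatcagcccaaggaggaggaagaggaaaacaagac
EPOR, chr19:11384315-11384564, minus strand: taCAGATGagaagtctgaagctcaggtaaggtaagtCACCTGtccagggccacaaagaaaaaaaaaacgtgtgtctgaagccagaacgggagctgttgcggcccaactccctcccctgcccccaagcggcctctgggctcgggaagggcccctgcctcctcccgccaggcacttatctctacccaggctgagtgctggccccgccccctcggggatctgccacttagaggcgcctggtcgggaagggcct

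The table of promoters matched 7 of the 8 genes, with 9 start sites. An E-box lay in 6 of these 9 windows, beside 61.8% of 35116 RefSeq promoter windows of the same length. The form CAGGTG, searched on both strands and so also read as CACCTG, lay in 4 of the 9, those of FLT3, EPOR, CSF2RA and the upstream start of CSF1R, beside 17.5% of all windows. CAGCTG, which reads the same on both strands, lay in 2 of the 9, the upstream window of CSF1R and that of IL3RA, beside 14% of all. Both forms are contained in CANNTG. The KIT window and the downstream CSF1R window held no E-box letters. That downstream window of CSF1R was the only 1 of the 9 with TGTGGT, letters known for RUNX factors, against 11% of all windows, and the EPOR window the only 1 with AGATAA, letters known for GATA factors, against 9.17% (both strands). GAGGAA, letters known for PU.1, lay in 4 of the 9, 1 each of FLT3, CSF1R, CSF2RA and CSF3R, against 23.6%. These are matches of letters in a short window, and binding at these genes was not analysed here.

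Against vector, a set of 3 receptor genes, CSF1R, FLT3 and EPOR, was called higher in every E protein library, and CSF2RB was called higher with E2-2. The count was 4 of 8 with E2-2, 3 of 8 with E2A and 3 of 8 with HEB, and 0 of 8 were called lower in each. Over all genes measured, the share called higher was 8.45% with E2-2, 4.89% with E2A and 2.55% with HEB, and the share called lower was 3.55%, 1.58% and 1.23%. The median log2 fold of the 8 receptor genes was 1.19 with E2-2, 0.38 with E2A and 0.63 with HEB, and that of all genes measured was -0.03, -0.01 and 0.01. The 3 comparisons share the vector library, so its reads enter each of them. The receptor genes were chosen with earlier results of these data known, so their counts beside the shares over all genes are description only.

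**Figure D1:**
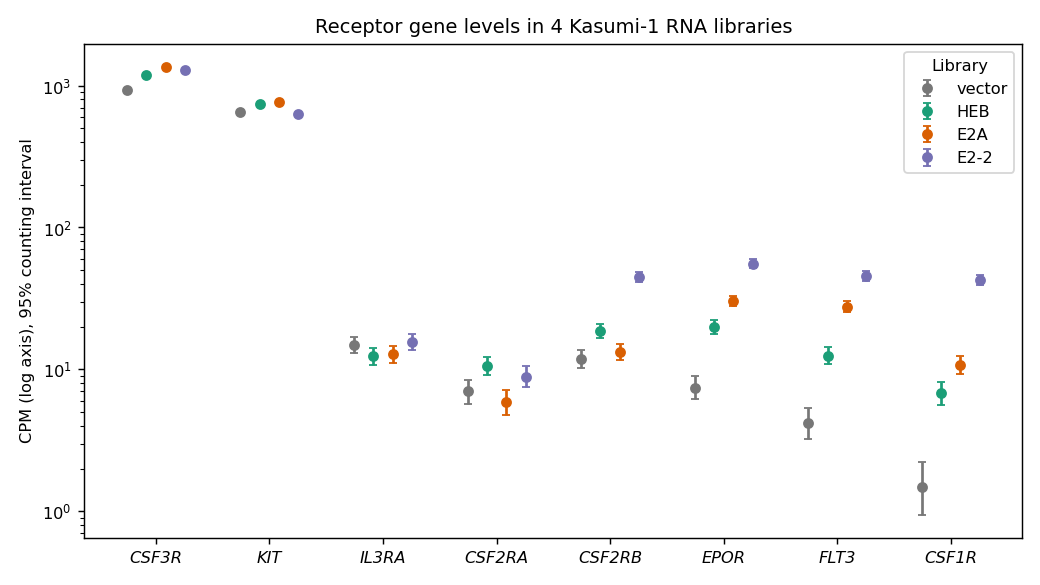
Receptor gene levels by library (log axis, CPM), each point with a 95% counting interval; CPM is not corrected for length, so points are to be read within a gene. CSF1R, FLT3 and EPOR climb from vector through HEB and E2A to E2-2, while KIT and CSF3R stay within a narrow band.

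CSF1R (ENSG00000182578, chromosome 5, 150053291 to 150113372) codes for the receptor that macrophage colony-stimulating factor and interleukin 34 use to drive monocyte and macrophage survival. It had 23 reads in vector, 113 in HEB, 191 in E2A and 646 in E2-2, or 1.47, 6.83, 10.8 and 42.6 CPM. Vector cells thus held little CSF1R RNA, and no 2 of the 4 intervals overlapped. Against vector the gene was 28.9-fold (19.1 to 45.9) higher with E2-2, 7.33-fold (4.74 to 11.8) with E2A and 4.63-fold (2.94 to 7.60) with HEB. Of all genes measured, 0.807% had a higher fold with E2-2, 1.17% with E2A and 0.774% with HEB. The monocyte and macrophage list summed to 10.3 CPM in vector, 7.37 in HEB, 6.57 in E2A and 8.97 in E2-2, with 5, 6, 8 and 5 of its 9 genes detected. Most of the sum was LYZ, the lysozyme gene, at 149, 107, 98 and 101 reads, and CD14 had 1 to 3 reads in every library. In the direction of CSF1R, the macrophage receptor gene MRC1 had 0, 0, 5 and 21 reads and VCAN 2, 6, 5 and 8, both highest in E2-2. The part of such cells in the result was not tested. Inside the span of CSF1R lies RPL7P1, a copy of a ribosomal protein gene, with 958 reads in vector, 929 in HEB, 1116 in E2A and 685 in E2-2. It was lowest where CSF1R was highest. The adjoining gene on its upstream side, PDGFRB, a platelet-derived growth factor receptor whose span begins 465 bases away, had 3 to 9 reads. On the other side, 149 bases away, HMGXB3 had 1441 to 1853.

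FLT3 (ENSG00000122025, chromosome 13, 28003274 to 28100592) codes for the receptor of FLT3 ligand, which supports early progenitors and dendritic cell precursors and is often mutated in acute myeloid leukemia. Its reads were 65 in vector, 207 in HEB, 489 in E2A and 692 in E2-2, or 4.17, 12.5, 27.7 and 45.6 CPM. Here too the 4 intervals did not overlap. Relative to vector, FLT3 stood 10.9-fold (8.48 to 14.3) higher with E2-2, 6.64-fold (5.12 to 8.74) with E2A and 3.00-fold (2.26 to 4.03) with HEB. Genes with a higher fold made up 1.76%, 1.27% and 1.28% of those measured. The list of dendritic cell markers summed to 5.26 CPM in vector, 7.07 in HEB, 7.98 in E2A and 9.36 in E2-2, with 2 to 6 of its 8 genes detected. That sum moved in the same order, and its part in the result was not tested. Nearly all of it came from NRP1, at 27, 42, 63 and 106 reads, and BATF3, at 55, 74, 75 and 30, whereas CD1C and LILRA4, defining genes of dendritic cells, had 0 reads in all 4 libraries and CLEC9A at most 3.

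EPOR (ENSG00000187266, chromosome 19, 11377205 to 11384342) codes for the erythropoietin receptor. Its reads were 116 in vector, 330 in HEB, 536 in E2A and 845 in E2-2, or 7.44, 19.9, 30.3 and 55.7 CPM, again with no overlap between intervals. Its fold over vector was 7.49 (6.16 to 9.18) with E2-2, 4.08 (3.33 to 5.03) with E2A and 2.68 (2.16 to 3.34) with HEB. Red cell genes were nearly absent beside it. HBB, HBA1 and AHSP, which make and stabilise hemoglobin, had 0 reads in all 4 libraries, and GATA1, the master factor of the erythroid line, had 0 to 3. SLC4A1, the red cell anion exchanger gene, had 0 reads in vector, 5 in HEB, 11 in E2A and 25 in E2-2, the order seen for EPOR, and its part was not tested. The gene next to EPOR at lower coordinates, SWSAP1, had 57 reads in vector and 26 to 34 in the others. RGL3, which overlaps the start of EPOR by a few bases, had at most 2.

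**Figure D2:**
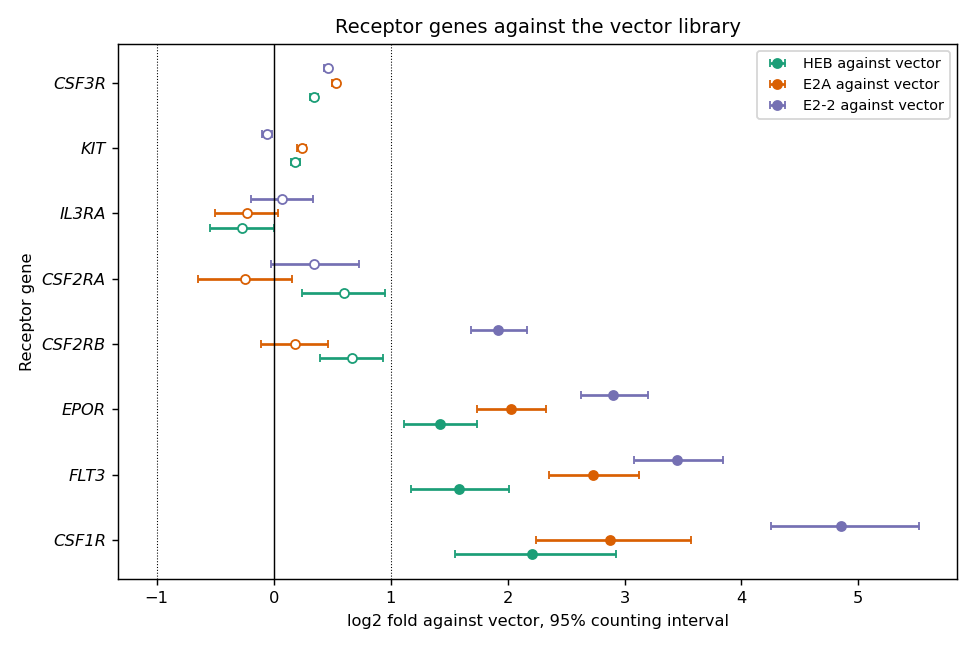
log2 fold of each receptor gene against vector with its 95% counting interval, for HEB, E2A and E2-2; filled points were called and dotted lines mark a 2-fold difference. CSF1R, FLT3 and EPOR lie right of the line in all 3 libraries, and CSF2RB passes it with E2-2.

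The order vector, HEB, E2A, E2-2 of these 3 genes was looked for across the table after their values were seen. Rising CPM alone in this order was found in 12.4% of genes. With every step's interval above 1, it was found in 2.68% of 15684 genes with at least 30 reads over the 4 libraries. Being called higher than vector in all 3 E protein libraries was found in 2.04% of 13411 genes measured in all 3 comparisons, and in 3 of the 8 receptor genes.

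CSF2RB (ENSG00000100368, chromosome 22, 36913628 to 36940449), the shared signalling chain of the interleukin 3, interleukin 5 and granulocyte-macrophage colony-stimulating factor receptors, followed another pattern. It had 184 reads in vector, 310 in HEB, 236 in E2A and 678 in E2-2, or 11.8, 18.7, 13.4 and 44.7 CPM. E2-2 stood apart, vector and E2A overlapped, and HEB lay between. Against vector it was 3.79-fold (3.22 to 4.48) higher with E2-2, 1.59-fold (1.32 to 1.92) with HEB and 1.13-fold (0.930 to 1.38) with E2A, and only the first was called. CSF2RBP1, a pseudogene copy 10080 bases away, had 0 reads in all libraries.

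The alpha chains that pair with CSF2RB were not called in any comparison. They lie next to each other, 26235 bases apart, in the region of chromosome X that is shared with chromosome Y. Reads there can map to both chromosomes, and how the authors treated such reads is not given in the sources used here. CSF2RA (ENSG00000198223, chromosome X, 1268800 to 1310381) had 109 reads in vector, 175 in HEB, 104 in E2A and 135 in E2-2, or 6.99, 10.6, 5.89 and 8.90 CPM. HEB was thus highest, and against vector the fold was 1.51 (1.19 to 1.94) with HEB, 1.27 (0.982 to 1.66) with E2-2 and 0.842 (0.638 to 1.11) with E2A. IL3RA (ENSG00000185291, chromosome X, 1336616 to 1382689), whose protein is the CD123 antigen of leukemic and plasmacytoid dendritic cells, had 233 reads in vector, 205 in HEB, 225 in E2A and 238 in E2-2. Its levels of 14.9, 12.4, 12.7 and 15.7 CPM lay close together, with folds against vector of 1.05 (0.873 to 1.26) for E2-2, 0.852 (0.707 to 1.03) for E2A and 0.829 (0.684 to 1.01) for HEB. No interval reached a 2-fold difference. Between the E proteins IL3RA was at most 1.27-fold (1.05 to 1.54) higher, in E2-2 against HEB.

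The reads of the beta chain gene relative to those of the alpha chain genes therefore differed most from vector in the E2-2 library. Reads are not corrected for length, so only the change of each ratio between libraries is read. There were 1.69 (1.32 to 2.16) CSF2RB reads per CSF2RA read in vector, 1.77 (1.47 to 2.14) in HEB, 2.27 (1.79 to 2.89) in E2A and 5.02 (4.17 to 6.09) in E2-2. For IL3RA the ratio was 0.790 (0.647 to 0.962) in vector, 1.51 (1.26 to 1.81) in HEB, 1.05 (0.870 to 1.26) in E2A and 2.85 (2.45 to 3.32) in E2-2. E2-2 was highest in both ratios, with no overlap with another library. For IL3RA the HEB ratio also stood above that in vector with no overlap.

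**Figure D3:**
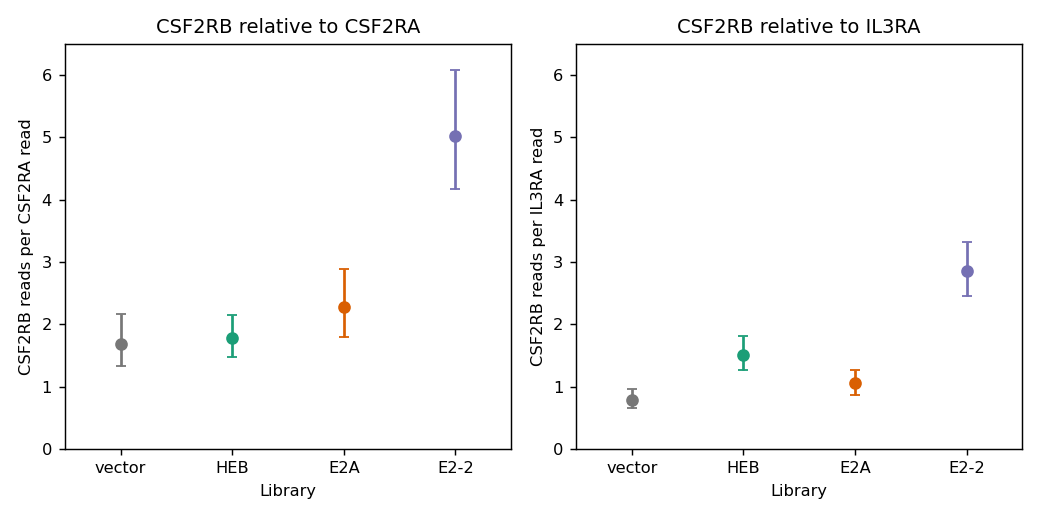
Reads of the shared beta chain gene CSF2RB per read of the alpha chain genes CSF2RA (left) and IL3RA (right) in each library, with 95% exact intervals for counting error. E2-2 stands highest in both panels, at 5.02 and 2.85.

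KIT (ENSG00000157404, chromosome 4, 54657918 to 54740715), the stem cell factor receptor and an oncogene of this line, was among the deeply read members and changed little. Its reads were 10171 in vector, 12285 in HEB, 13607 in E2A and 9497 in E2-2, or 652, 742, 770 and 626 CPM. Vector and E2-2 were the lower libraries and HEB and E2A the higher. The fold against vector was 0.960 (0.934 to 0.988) with E2-2, 1.18 (1.15 to 1.21) with E2A and 1.14 (1.11 to 1.17) with HEB. At this depth counting error is small beside any difference between cultures, which these data do not measure. Of all genes measured, 52.9% had a higher fold than KIT with E2-2, which places it near the middle. Mast cells are known for KIT, and the mast cell and basophil list summed to 2.37 CPM in vector, 8.40 in HEB, 45.5 in E2A and 33.8 in E2-2, with 5 or 6 of 7 genes detected, almost wholly through the protease gene CPA3 (1, 98, 758 and 486 reads). CMA1 had 0 reads in all 4 libraries and FCER1A at most 1.

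CSF3R (ENSG00000119535, chromosome 1, 36466043 to 36483278), the neutrophil growth factor receptor, had 14545 reads in vector, 19601 in HEB, 23788 in E2A and 19484 in E2-2, or 932, 1184, 1346 and 1285 CPM. All 3 E protein libraries stood above vector, by 1.27-fold (1.24 to 1.30) for HEB, 1.44-fold (1.41 to 1.47) for E2A and 1.38-fold (1.35 to 1.41) for E2-2, each below the 2-fold rule. Its lower neighbour MRPS15, 1606 bases away, had 925 to 1204 reads.

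Set against the steady KIT, the receptor mix of these cells differed between libraries. FLT3 reads per KIT read went from 0.00639 (0.00493 to 0.00815) in vector to 0.0168 (0.0146 to 0.0193) in HEB, 0.0359 (0.0328 to 0.0393) in E2A and 0.0729 (0.0674 to 0.0787) in E2-2. CSF1R reads per CSF3R read, the monocyte against the neutrophil receptor, went from 0.00158 (0.00100 to 0.00237) to 0.00577 (0.00475 to 0.00694), 0.00803 (0.00693 to 0.00926) and 0.0332 (0.0306 to 0.0359). Levels of different genes were not ranked. The gene lengths implied by the authors' FPKM values are not transcript lengths, for EPOR 8182 nucleotides against a whole gene span of 7138.

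The E proteins were next compared directly. Between E2-2 and HEB, 4 of 8 were called higher in E2-2, beside 6.09% of all genes, and 0 called lower, beside 1.57%. The called members were CSF1R at 6.24-fold (5.10 to 7.69), FLT3 at 3.65-fold (3.12 to 4.28), EPOR at 2.79-fold (2.46 to 3.18) and CSF2RB at 2.39-fold (2.08 to 2.74).

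Between E2-2 and E2A, 2 of 8 were called higher in E2-2, beside 3.63% of all genes, and 0 lower, beside 1.61%. These were CSF1R, 3.94-fold (3.35 to 4.66), and CSF2RB, 3.35-fold (2.88 to 3.90). EPOR at 1.84-fold (1.65 to 2.05) and FLT3 at 1.65-fold (1.47 to 1.86) were higher in E2-2 but below the rule, and CSF2RA was at 1.51-fold (1.16 to 1.97). Between E2A and HEB, 1 of 8, FLT3, was called higher in E2A at 2.21-fold (1.88 to 2.62), beside 2.38% of all genes, and 0 of 8 were called lower, beside 0.696%. EPOR was at 1.52-fold (1.32 to 1.75) and CSF1R at 1.58-fold (1.25 to 2.02). Both chains of the granulocyte-macrophage colony-stimulating factor receptor went the other way, CSF2RA 1.80-fold (1.40 to 2.31) and CSF2RB 1.40-fold (1.18 to 1.67) lower in E2A than in HEB, neither called.

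**Figure D4:**
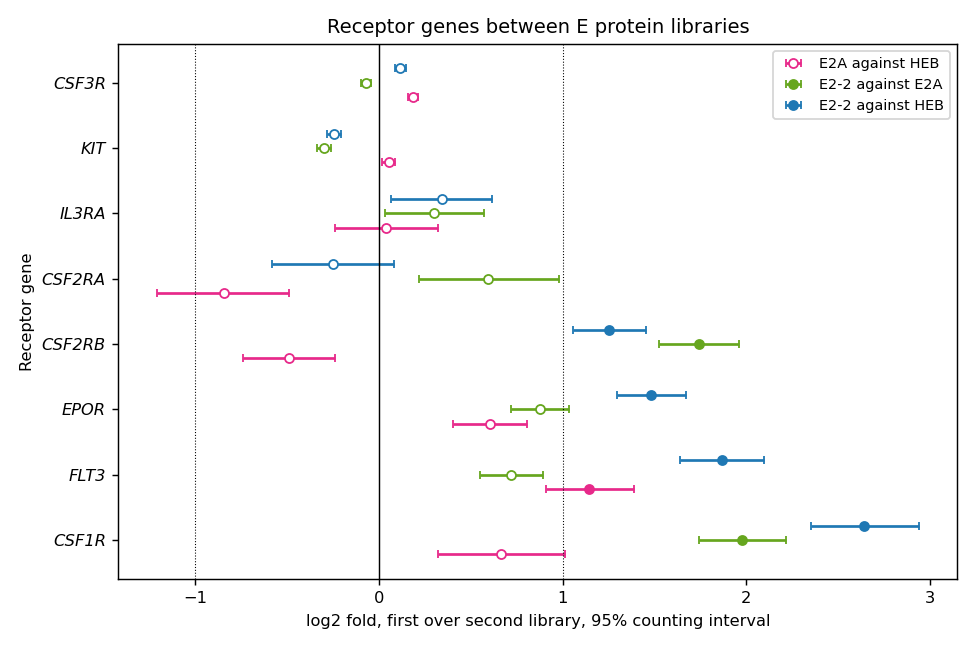
log2 fold of each receptor gene between E protein libraries, first over second, with 95% counting intervals; filled points were called and dotted lines mark a 2-fold difference. CSF1R and CSF2RB pass the line for E2-2 against both other E proteins, and FLT3 for E2A against HEB.

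Genes with the most similar pattern were found by the distance between their 3 log2 folds against vector. The search covered 11942 genes with at least 100 reads over the 4 libraries, reads in every library and a symbol other than a clone identifier. A gene without reads in vector was thus left out. FLT3 was nearest to CAMK2B (distance 0.27), MAPRE2 (0.27) and PGLYRP4 (0.30). EPOR was nearest to HIVEP3 (0.15), GAS7 (0.22) and PPP1R16B (0.23). CSF1R was nearest to SH2D3C (0.28), SERINC2 (0.35) and SLC26A10 (0.58), and CSF2RB to SIRT2 (0.29), DTX4 (0.37) and SMAD1 (0.38). Members that changed little had close neighbours by number alone, KIT with SNF8, CLIP3 and STK39 and CSF3R with SSX2IP, AKAP7 and GSTM2, each within 0.06. CSF2RA was nearest to TRIM5, NOL12 and CYSTM1 and IL3RA to C14orf80, EPC1 and RAPGEF6. Among the receptor genes called higher, FLT3 and EPOR were closest to each other (0.91) and CSF1R and CSF2RB farthest apart (4.27). The distance has 3 values per gene that share the vector library, so it describes these libraries only.

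The ligands of these receptors were mostly at or near 0. Of 10 ligand genes, 2 had enough reads with E2-2, 1 with E2A and 2 with HEB. THPO reached the minimum only through its E2-2 reads and KITLG only with HEB, so the number called is not read as a result. CSF1, whose product binds CSF1R, had 39 reads in vector, 46 in HEB, 37 in E2A and 138 in E2-2, 3.64-fold (2.53 to 5.34) higher with E2-2. THPO, the thrombopoietin gene, had 64 reads with E2-2 and 1 in vector, a ratio of 65.8 (11.4 to 2640). KITLG, the stem cell factor gene, was called higher with HEB from 23 reads against 9, 2.41-fold (1.07 to 5.91).

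The list of related receptors held 14 genes, with 3 of 8 measured called higher and 1 lower with E2-2, 0 of 7 in either direction with E2A, and 1 of 7 lower with HEB. The interleukin 6 receptor gene IL6R was 5.20-fold (4.32 to 6.31) higher with E2-2, 1.33-fold (1.07 to 1.67) with E2A and 1.49-fold (1.20 to 1.87) with HEB. Only the first of these was called. IL4R was 3.36-fold (3.12 to 3.61) higher with E2-2, 1.83-fold (1.69 to 1.97) with E2A and 1.35-fold (1.24 to 1.46) with HEB. Only the first was called. IL7R had 31 reads with E2-2 against 1 in vector. It reached the read minimum only with E2-2, so the number called and the median there are not read as results. The median log2 fold of the list was 0.65 with E2-2, -0.10 with E2A and -0.05 with HEB.

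Downstream of the receptors, the JAK and STAT list held 9 measured genes, of which 0 were called higher in any comparison with vector and 1 lower, JAK3 with E2-2 at 2.10-fold (1.77 to 2.50). Its median log2 fold was -0.18 with E2-2, -0.05 with E2A and -0.11 with HEB. Among adaptors and kinases 5 of 20 were called higher and 1 lower with E2-2, 3 of 20 higher and 0 lower with E2A, and 0 higher and 1 of 19 lower with HEB. SRC was 5.00-fold (3.31 to 7.80) higher with E2-2 and 2.40-fold (1.53 to 3.84) with E2A, and VAV1, a guanine nucleotide exchange factor gene, 3.14-fold (2.88 to 3.42) and 2.35-fold (2.15 to 2.57). PIK3R5, a regulatory subunit gene of PI3K, was lower, 3.22-fold (2.49 to 4.20) with E2-2 and 2.36-fold (1.89 to 2.96) with HEB. The adaptor genes GAB1 and GAB2 were also called higher with E2-2. The median of this list was 0.30, -0.07 and 0.03 in the same order.

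Of 12 negative regulators, 2 were called higher with E2-2, 1 with E2A and 1 with HEB, and 0 lower, beside 8.45%, 4.89% and 2.55% of all genes called higher. SOCS1, which blocks JAK kinases, had 4 reads in vector, 31 in HEB, 34 in E2A and 107 in E2-2. It thus reached the read minimum only through the libraries where it was high. PTPN6, the phosphatase gene of SHP-1, was 2.21-fold (2.05 to 2.38) higher with E2-2. Of the genes that such receptors commonly induce, 4 of 10 were called higher and 1 lower with E2-2, 2 of 11 higher and 1 lower with E2A, and 0 of 10 with HEB. PIM1, a survival kinase gene, was 4.53-fold (3.60 to 5.74) higher with E2-2, 2.84-fold (2.24 to 3.63) with E2A and 1.95-fold (1.51 to 2.53) with HEB, the last not called. BCL2L1 and CCND2 were 2.85-fold (2.54 to 3.20) and 2.60-fold (2.46 to 2.75) higher with E2-2, while FOS was 2.36-fold (1.57 to 3.62) lower with E2A. EGR1 was the other gene called higher with E2-2 and E2A, and MYC the gene called lower with E2-2. The median log2 fold of the induced genes was 0.77 with E2-2, 0.11 with E2A and 0.35 with HEB, and that of the negative regulators 0.09, 0.08 and 0.03.

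**Figure D5:**
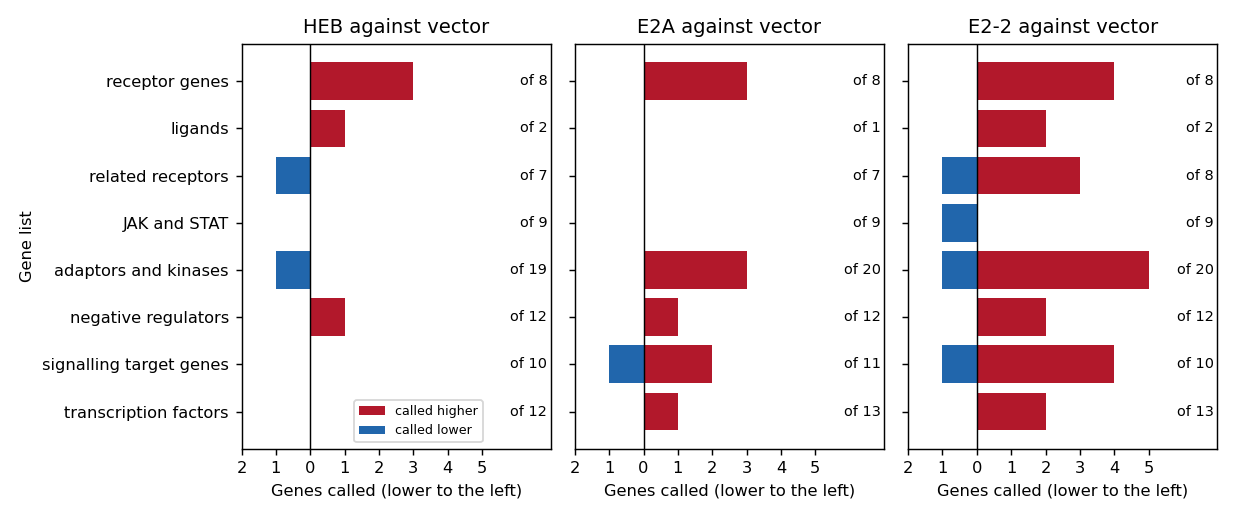
Number of genes called higher (right of 0) or lower (left of 0) than vector in each gene list, with the number measured at the right of each panel. With E2-2, calls fall in every list, and the JAK and STAT list has 1 call, a lower one.

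Of 14 lineage transcription factor genes, 2 of 13 measured were called higher with E2-2, 1 of 13 with E2A and 0 of 12 with HEB, and 0 lower, counts that lie near the 8.45%, 4.89% and 2.55% over all genes. SPI1, the gene of PU.1, which is known to bind the CSF1R promoter, had 1504 reads in vector, 2315 in HEB, 2784 in E2A and 2945 in E2-2, or 96.4, 140, 158 and 194 CPM. Its CPM rose in the order of CSF1R, which 12.4% of all genes did, with folds over vector of 1.45 (1.36 to 1.55) with HEB, 1.63 (1.53 to 1.74) with E2A and 2.01 (1.89 to 2.14) with E2-2. CEBPA, a granulocyte and monocyte factor gene, had 95, 118, 124 and 92 reads, and GATA2, a progenitor and mast cell factor gene, 94.5, 82.7, 96.0 and 101 CPM, with no call for either. IRF8, a monocyte and dendritic cell factor gene, had 5 reads in vector, 13 in HEB, 39 in E2A and 56 in E2-2. It thus reached the read minimum only with E2A and E2-2. The median log2 fold of this list was -0.07 with E2-2, 0.00 with E2A and 0.08 with HEB.

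The table's own annotation places the receptors in 2 wider KEGG pathways, consulted after the values were seen, with CSF2RB in the cytokine pathway but not in the lineage pathway. Of the hematopoietic cell lineage pathway without the receptor genes, 11 of 32 measured genes were called higher and 4 lower with E2-2, 5 of 28 and 1 with E2A, and 3 of 30 and 3 with HEB. Their median log2 folds were 0.03, -0.13 and 0.07. Of the cytokine and cytokine receptor pathway without them, 21 of 83 were called higher and 7 lower with E2-2, 11 of 81 and 4 with E2A, and 4 of 77 and 2 with HEB. Over all genes measured, 8.45%, 4.89% and 2.55% were called higher and 3.55%, 1.58% and 1.23% lower, in the same order. Some pathway genes reached the read minimum only through the library where they were high. CD9, for example, had 239 reads with E2-2 and 1 in vector. With the pathways also consulted after the values were seen, the numbers called are not read as a result.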

How the data were processed

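TRIzol extraction of sorted GFP-positive cells and TruSeq RNA libraries are given, per the labels' protocols. The submitters' processing notes list HTSeq 0.9.1, TopHat2 2.0.9, MACS2 2.1.1.20160309, Bowtie2 2.2.9 and the builds hg38 and hg19, with no role for any. All 8 receptor genes overlapped the RefSeq gene of their symbol on GRCh38. For the strand setting and for reads that map to several places, the treatment is not given in the sources used here.

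The authors deposited raw read counts per gene for each library, and beside them FPKM values, per the file headers. For the receptor genes the FPKM is the count divided by the library total and a fixed length, so its folds equal those from library totals. Counts were scaled with TMM (edgeR 4.0.16, R 4.3.3). Folds and exact conditional binomial intervals (Clopper-Pearson) were computed in Python 3.11.15 with scipy 1.17.1. The call rule was run on simulated counts with counting error only. Such counts hold no difference between cultures, so they cannot show how the rule behaves between cultures. A count of 0 was set to a floor of 3 reads, and pairs of counts at or under that floor got no fold.

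Whether reads are independent molecules is unknown, and intervals cover counting error only. The members, lists and rules were chosen with earlier results of these data known. All members are named, and of each pathway list up to 4 called genes with the largest folds, with SPI1, CEBPA, GATA1 and GATA2. Some genes that this rule names are counted in their lists but not reported here. Alternatives were DESeq2 1.42.0 size factors, library totals, upper quartile scaling, FPKM, other read minimums, other fold thresholds and another floor. The HA ChIP-seq libraries were not analysed here.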

Additional observations from a re-analysis of the deposited data

How the results depend on the processing

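No paired analysis was possible because each group has 1 library, and no library could be left out for the same reason. Each fold rests on that library, so differences between cultures are not covered. Of 108 counts of called receptor genes recomputed, 101 were identical. Scaling by DESeq2 size factors, library totals, upper quartile or FPKM changed no count. In 192 refits it moved the folds of single receptor genes by -0.06 to 0.05 on the log2 scale. Called folds turned direction 0 times, which shifts of this size could not do to a fold of 2 or more. For KIT and CSF3R, whose counting intervals are narrow, some refitted folds fell outside the interval. There were 5 such folds with library totals, 5 with FPKM and 4 with upper quartile. For KIT in E2-2 against vector, the log2 fold was -0.06 with TMM and -0.01 with library totals. CSF2RA and IL3RA have 1 row each, so no rows were summed. With a fold threshold of 1.5, HEB against vector had 5 receptor genes called higher, E2-2 against E2A had 5, and E2A against HEB had 3 higher and 1 lower. With a threshold of 3 E2-2 against HEB had 2 called higher and E2A against HEB had 0. HEB against vector then had 2 called higher instead of 3. EPOR, at 2.68-fold, was no longer called there, and FLT3, at 3.00-fold, stood at the threshold. All genes called in either direction, in the order E2-2, E2A and HEB against vector, E2-2 against E2A, E2-2 against HEB and E2A against HEB, were 3187, 1866, 1168, 1556, 2327 and 1077 at 1.5-fold and 810, 400, 194, 273, 451 and 137 at 3-fold. They were 1038, 478, 238, 365, 606 and 174 with at least 100 reads. With no read minimum E2A against vector had 1388, HEB against vector 876, E2-2 against E2A 1134 and E2A against HEB 803. These shifts follow from the thresholds themselves.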

Other observations

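Other receptor genes outside the list, picked after their values were seen, also differed from vector. Among receptor tyrosine kinases, FLT4, a lymphatic vascular endothelial growth factor receptor gene, had 18 reads in vector, 38 in HEB, 47 in E2A and 107 in E2-2, and was 6.11-fold (3.69 to 10.7) higher with E2-2 and 2.31-fold (1.31 to 4.22) with E2A. KDR, the blood vessel counterpart, which lies beyond KIT on chromosome 4 at 55078477 to 55125589, had 8, 17, 22 and 38 reads and was 4.89-fold (2.25 to 12.1) and 2.43-fold (1.04 to 6.31) higher. KIT itself was called in no comparison. Cytokine receptor genes with the same direction were IL17RA, 2.95-fold (2.72 to 3.20) higher with E2-2 and 2.09-fold (1.92 to 2.27) with E2A, and IL21R, with 51 and 31 reads against 1 in vector. In the other direction IL18RAP, an interleukin 18 receptor chain gene, had 1784 reads in vector, 963 in HEB, 988 in E2A and 276 in E2-2.

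The cytokine gene IL1B was called higher in all 3 E protein libraries, 5.36-fold (4.51 to 6.40) with E2-2, 3.84-fold (3.22 to 4.60) with E2A and 2.71-fold (2.26 to 3.28) with HEB. So was CD33, a myeloid surface marker, at 441 reads in vector, 1490 in HEB, 1515 in E2A and 1751 in E2-2. CD33 did not separate the E proteins as CSF1R did, at 3.18-fold (2.86 to 3.55) with HEB, 3.03-fold (2.73 to 3.38) with E2A and 4.08-fold (3.68 to 4.54) with E2-2.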
